A study of Mus musculus with 5 samples.

Results

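The transcripts of 4 syndecans (Sdc1, Sdc2, Sdc3 and Sdc4), of heparanase (Hpse) and of 3 enzymes that build heparan sulfate (Ext1, Ext2 and Ndst1) were followed in murine bone marrow plasma cells (PCs) on 5 Affymetrix mouse arrays. All probe sets that the platform annotation assigns to 1 of these genes alone were taken, which gave 19 probe sets of 7 genes among 45037 probe sets and 18193 genes on the arrays. Ndst1 was not analysed here. The 8 genes were chosen by name with their culture changes on these same arrays already known, so their values in culture and ex vivo are given as a description. Counts of members passing limma's test for culture are printed only beside the share over all genes.

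PCs came from the bone marrow of C57BL/6J mice that had been immunized and boosted with the hapten NP coupled to chicken gamma globulin, and were enriched magnetically as CD138high cells after removal of B220 and CD49b expressing cells. Cultured PCs (3 arrays) were then kept for 3 days with ST2 cells, a murine bone marrow stromal cell line, and the cytokine APRIL at the low oxygen level of marrow, and were sorted by flow cytometry before RNA extraction. Ex vivo PCs (2 arrays) were processed directly after magnetic isolation. The labels place the arrays in 2 experiments, with cultured E1 and ex vivo E1 in experiment 1, and cultured E2-1, cultured E2-2 and ex vivo E2 in experiment 2. Neither the ages of the mice nor the number pooled for an array is given in the sources used here, and cultured E2-1 and E2-2 may be technical repeats, so that errors may cover technical spread alone. Culture, its oxygen level, the stromal line, APRIL and the final sort differed together between the groups and cannot be told apart.

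Syndecans are membrane proteins that carry heparan sulfate chains, and these chains hold growth factors, chemokines and cytokines at the cell surface. Sdc1 is CD138, the antigen by which PCs are recognised and were enriched here, and its heparan sulfate binds APRIL. Ext1 and Ext2 form the complex that polymerises the chains, Ndst enzymes start their sulfation, and heparanase cuts the finished chains outside the cell and in lysosomes. In myeloma, the malignancy of PCs, heparanase is known to promote the shedding of syndecan-1.

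All values below are log2 of the deposited intensity, and a difference of 1 is a doubling. Affinities differ between probe sets, so levels were compared between arrays and never between probe sets. Median intensities of the arrays lay between 87.0 and 94.2. A probe set was tested if its intensity reached 50 on at least 2 of the 5 arrays, which held for 16 of the 19 probe sets and for at least 1 probe set of each of the 7 genes. The PC marker list fixed for this comparison (7 of 8 genes with a probe set) was above this level on every array, with summed intensities from 49966 to 51125 in cultured PCs and from 52551 to 52744 in ex vivo PCs. Of the 7, 2 (Tnfrsf17 and Slamf7) were lower on all cultured arrays than on both ex vivo arrays and 0 were higher. Over all tested genes, the groups did not overlap for 20.8%.

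**Figure D1:**
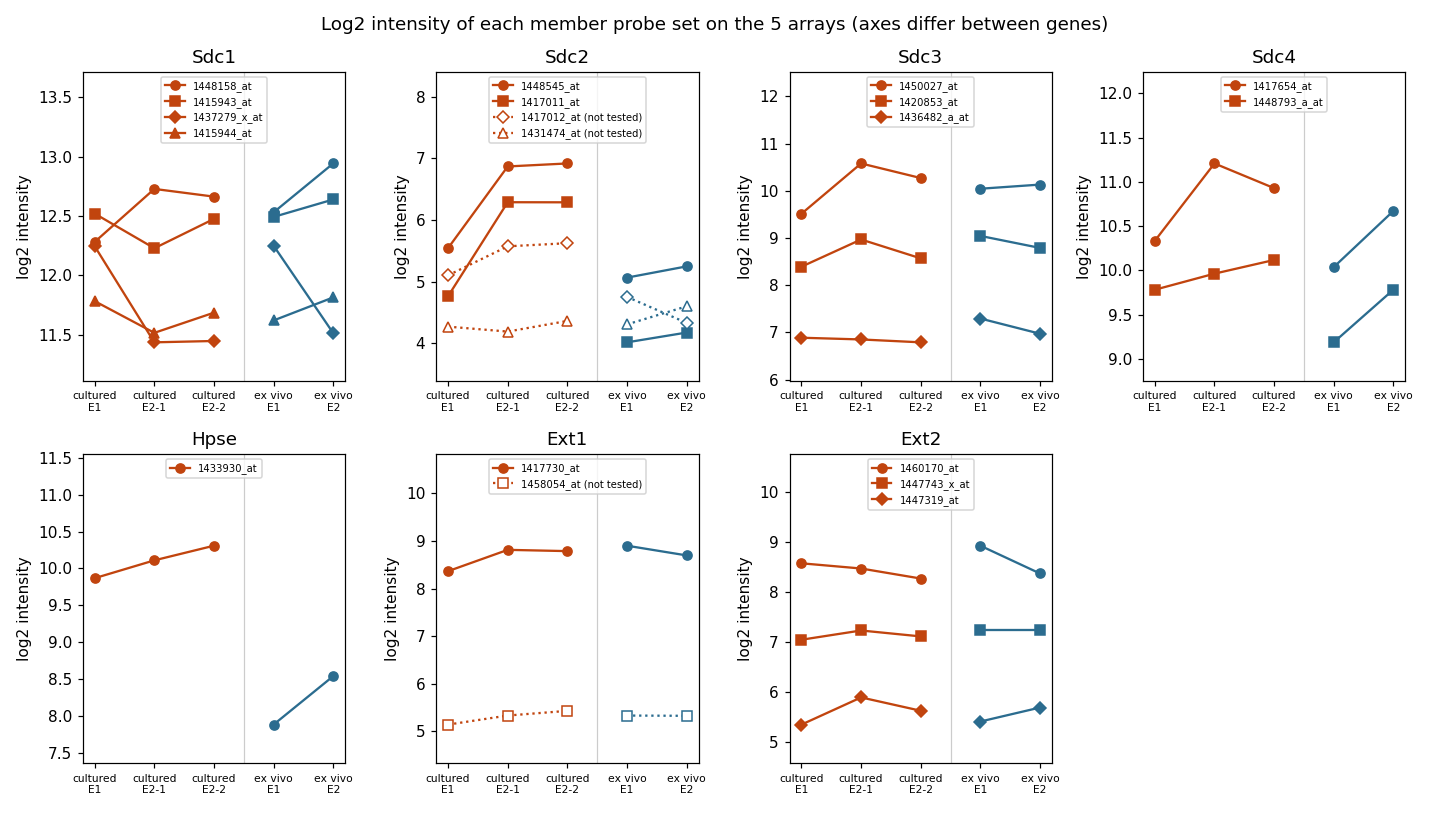
Log2 intensity (vertical axes, which differ between genes) of each member probe set on the 5 arrays, cultured PCs in red on the left and ex vivo PCs in blue on the right of each panel. Lines join the arrays of one probe set, and open symbols mark probe sets that were not tested. Hpse stood between 9.87 and 10.31 in culture, above 7.88 and 8.54 ex vivo.

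Heparanase showed the largest difference between the groups among the members. Its single probe set (1433930_at) read 9.87 in cultured E1, 10.11 in cultured E2-1 and 10.31 in cultured E2-2, against 7.88 in ex vivo E1 and 8.54 in ex vivo E2. All cultured arrays were thus above both ex vivo arrays. Cultured PCs averaged 10.10 ± 0.22 (SD, n = 3) and ex vivo PCs 8.21 ± 0.47 (SD, n = 2), a log2 difference of 1.89 (SE 0.25). Within experiment 1 the cultured array was 3.97-fold above the ex vivo array, and within experiment 2 the 2 cultured arrays were on average 3.19-fold above it. The difference shrank to 1.56 when ex vivo E1 was left out and grew to 2.22 when ex vivo E2 was left out. Since Hpse has 1 probe set here, no second one could be set beside it.

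Bases upstream of the transcription start are given for Hpse, the member with the largest difference, for Sdc1, the surface antigen of PCs, and for Sdc4, higher in culture by both of its probe sets. The RefSeq table of GRCm38.p6 held such a window for 5 of the 8 members. Each run is the 250 bases before the start, read 5′ to 3′ on the strand of the gene, from chr12:8771146-8771395 on the plus strand for Sdc1, chr2:164443189-164443438 on the minus strand for Sdc4 and chr5:100719717-100719966 on the minus strand for Hpse. Capitals mark the GC box GGGCGG, the TATA motif TATAA and the core ACGTG of hypoxia response elements, each searched on both strands.
Hpse: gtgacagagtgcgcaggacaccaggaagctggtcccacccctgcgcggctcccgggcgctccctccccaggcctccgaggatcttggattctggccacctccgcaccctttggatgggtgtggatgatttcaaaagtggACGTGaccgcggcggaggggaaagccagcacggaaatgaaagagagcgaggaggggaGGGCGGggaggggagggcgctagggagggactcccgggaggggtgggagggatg
Sdc1: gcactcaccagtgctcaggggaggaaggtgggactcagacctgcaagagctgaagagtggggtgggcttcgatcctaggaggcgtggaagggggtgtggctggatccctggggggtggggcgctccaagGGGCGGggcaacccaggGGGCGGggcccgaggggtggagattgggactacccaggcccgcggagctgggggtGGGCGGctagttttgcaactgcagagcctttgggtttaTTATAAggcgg
Sdc4: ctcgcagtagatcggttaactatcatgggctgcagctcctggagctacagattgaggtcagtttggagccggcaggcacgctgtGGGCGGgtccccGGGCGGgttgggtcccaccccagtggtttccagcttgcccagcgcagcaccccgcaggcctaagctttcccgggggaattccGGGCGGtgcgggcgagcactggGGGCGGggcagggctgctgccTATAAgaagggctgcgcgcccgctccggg
The window of Hpse held 1 GC box and 1 ACGTG, which began 111 bases before the start, and no TATAA. The window of Sdc1 held 3 GC boxes and a TATA motif matched on both strands in overlapping letters. The window of Sdc4 held 4 GC boxes and 1 TATAA, which began 29 bases before the start. The windows of Sdc3 and Ext2 are not printed. That of Sdc3 held no ACGTG, and that of Ext2 held 2 matches of it, on both strands in overlapping letters. The motif ACGTG was thus not particular to the window of Hpse. Among 32851 windows of the same length in the table, 32.7% held GGGCGG, 22.8% held TATAA and 16.6% held ACGTG. These matches describe the letters and do not show that a factor binds there.

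Sdc2, the syndecan of fibroblasts and other mesenchymal cells, was the other member whose groups did not overlap by the brightest probe set. Its brightest probe set (1448545_at) read 5.54, 6.87 and 6.92 in cultured E1, E2-1 and E2-2, against 5.07 and 5.25 in ex vivo E1 and E2. The probe set 1417011_at had 4.77, 6.29 and 6.29 in the same cultured arrays, against 4.02 and 4.18 ex vivo. Both were low ex vivo and in cultured E1 and stood apart on the 2 cultured arrays of experiment 2. They reached an intensity of 50 on those 2 arrays alone, and so were tested only because they were high there. The cultured array of experiment 1 was 1.39-fold above its ex vivo array by 1448545_at and 1.68-fold by 1417011_at, whereas in experiment 2 the folds were 3.13 and 4.32. Another probe set (1417012_at), below the intensity of 50 on every array, had the same order of groups, at 5.10, 5.57 and 5.62 in culture against 4.75 and 4.33 ex vivo. The last (1431474_at), equally dim, stayed between 4.19 and 4.36 in culture and at 4.31 and 4.60 ex vivo.

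Markers of stromal cells moved with Sdc2. Of 12 such genes, 9 were higher on all cultured arrays than on both ex vivo arrays, among them the collagen genes Col1a1, Col1a2, Col3a1 and Col6a1, and 1 was lower. Over all tested genes, the groups did not overlap for 20.8%. The summed intensity of the stromal markers was 4480 in cultured E1 and 12469 and 12683 in cultured E2-1 and E2-2, against 779 and 646 ex vivo. By the brightest probe set, the change was larger in experiment 2 than in experiment 1 for all 9 that were higher, as it was for Sdc2. For Cav1 the changes were close, at 2.96 in experiment 1 and 3.02 on average in experiment 2. A dimmer probe set of Pcolce (1437165_a_at) went the other way, at 2.16 in experiment 1 and 1.85 on average in experiment 2. The 1 lower gene, Thy1, changed by -0.82 in experiment 1 and by -0.34 on average in experiment 2. For Hpse the change was smaller in experiment 2, at 1.67 in experiment 2 and 1.99 in experiment 1. Of the defining markers, Dcn read between 5.62 and 5.82 in culture and 5.77 and 5.86 ex vivo. The part of the stromal transcripts in the values of Sdc2 or Hpse was not tested, and on bulk RNA fewer cells of a type and less RNA per cell cannot be told apart.

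Macrophage markers moved the other way. Of 10 genes, 7 were lower on all cultured arrays than on both ex vivo arrays and 1, Cd68, was higher. Their summed intensity, to which Cd68 contributes, overlapped between the groups, at 1885, 1810 and 1498 in culture against 2137 and 1657 ex vivo. Neutrophil markers, of which 5 of 8 were lower on all cultured arrays, summed to between 420 and 439 in culture, against 832 and 518 ex vivo. Only 4 of the 8 were tested, and S100a8 and Mpo, among the 5, reached an intensity of 50 on 1 array alone. Markers of megakaryocytes and platelets summed to between 479 and 543 in culture, against 539 and 560 ex vivo. Of the 7 with a probe set, 3 were lower on all cultured arrays, and 4 stayed below 50 on every array. B cell markers summed to between 11711 and 12995 in culture, against 11408 and 12360 ex vivo, while 2 of the 7 with a probe set, the precursor genes Vpreb1 and Dntt, were lower on all cultured arrays. With the experiment as a block, Dntt passed at -1.14 (SE 0.12, limma adjusted p = 0.017). It was not the only marker to pass. With the block, 7 stromal markers were called higher, and 4 macrophage markers were called lower and 1 higher, against 1.74% of all genes. Several of these reached an intensity of 50 only in the group where they were high, so nothing is read from the counts. The counts of markers lower or higher on all cultured arrays stand beside the 20.8% of all tested genes whose groups did not overlap. Whether any of these cell types contributed to a member's value was not tested.

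**Figure D2:**
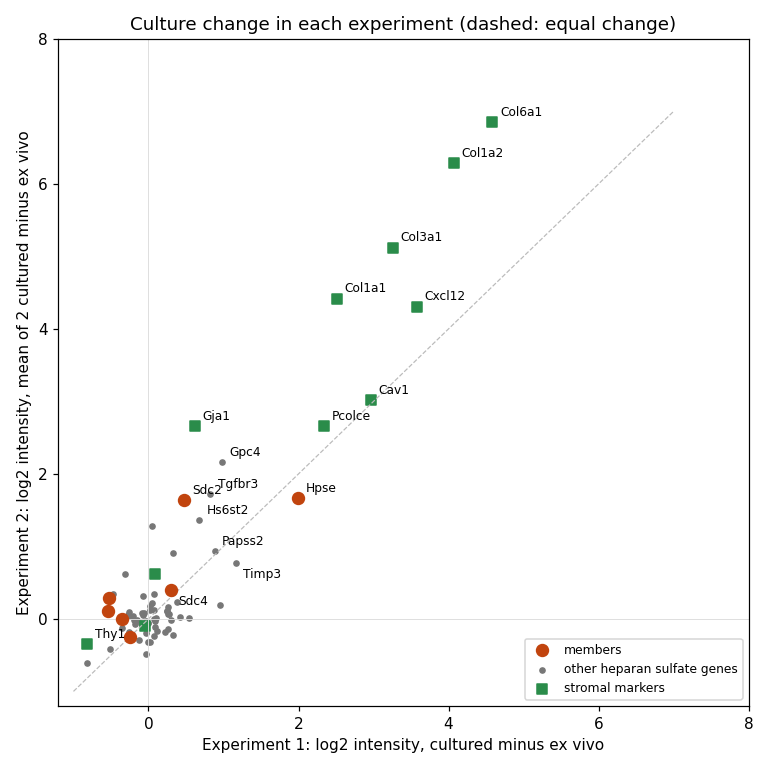
Difference in log2 intensity between cultured and ex vivo PCs in experiment 1 (horizontal axis) and in experiment 2, as the mean of its 2 cultured arrays (vertical axis), with 1 point for each gene. Sdc2 and most stromal markers lie above the dashed line of equal change, and Hpse lies below it at 1.99 and 1.67.

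Sdc4, a syndecan of focal adhesions whose upstream window holds 4 GC boxes, was higher in culture within both experiments by smaller amounts. Its brightest probe set (1417654_at) read 10.33, 11.21 and 10.93 in cultured E1, E2-1 and E2-2, against 10.04 and 10.67 in ex vivo E1 and E2. The groups overlapped, because ex vivo E2 was above cultured E1. The within-experiment differences were 0.30 in experiment 1 and 0.54 and 0.26 in experiment 2. The probe set 1448793_a_at gave 0.59 in experiment 1 and 0.18 and 0.34 in experiment 2, so both probe sets had the same sign on all arrays.

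Sdc1 had nearly the same signal in culture and ex vivo. Its brightest probe set (1448158_at) read 12.28, 12.73 and 12.66 in cultured E1, E2-1 and E2-2, against 12.53 and 12.94 in ex vivo E1 and E2. The difference was -0.25 within experiment 1 and -0.21 and -0.28 within experiment 2. The other 3 probe sets differed by at most 0.41 in either direction, and 2 of them were slightly higher in culture in experiment 1 and lower in experiment 2. CD138 protein was the antigen of the magnetic enrichment, and whether this choice of cells affected the transcript level was not tested.

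Sdc3, best known from neural tissue, had no common direction. Its brightest probe set (1450027_at) read 9.51, 10.58 and 10.27 in cultured E1, E2-1 and E2-2, against 10.04 and 10.13 in ex vivo E1 and E2. It was thus 0.53 lower in culture in experiment 1 (log2 difference -0.53) and higher by 0.45 and 0.14 in experiment 2. The probe set 1420853_at gave -0.65 in experiment 1 and 0.18 and -0.22 in experiment 2. Only 1436482_a_at was lower on every cultured array, with 6.89, 6.85 and 6.79 against 7.30 and 6.97 ex vivo.

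The polymerases of the chain differed little between the groups on average. Ext1 (1417730_at) read 8.36, 8.81 and 8.79 in cultured E1, E2-1 and E2-2, against 8.90 and 8.70 in ex vivo E1 and E2. Ext2 (1460170_at) read 8.58, 8.47 and 8.27 in the same cultured arrays, against 8.93 and 8.37 ex vivo. Both genes had overlapping groups. Without the experiment as a block, the average differences were -0.14 (SE 0.19) for Ext1 and -0.21 (SE 0.22) for Ext2, less than 1 SE from 0. With the block they were -0.170 (SE 0.169) and -0.151 (SE 0.138), slightly more than 1 SE from 0. Within experiments, Ext1 changed by -0.54 in experiment 1 and by 0.12 and 0.09 in experiment 2. The second Ext1 probe set (1458054_at) was below 50 on all arrays. The remaining probe sets of Ext2 differed by -0.18, 0.00 and -0.12 (1447743_x_at) and by -0.06, 0.20 and -0.06 (1447319_at) in E1, E2-1 and E2-2.

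**Figure D3:**
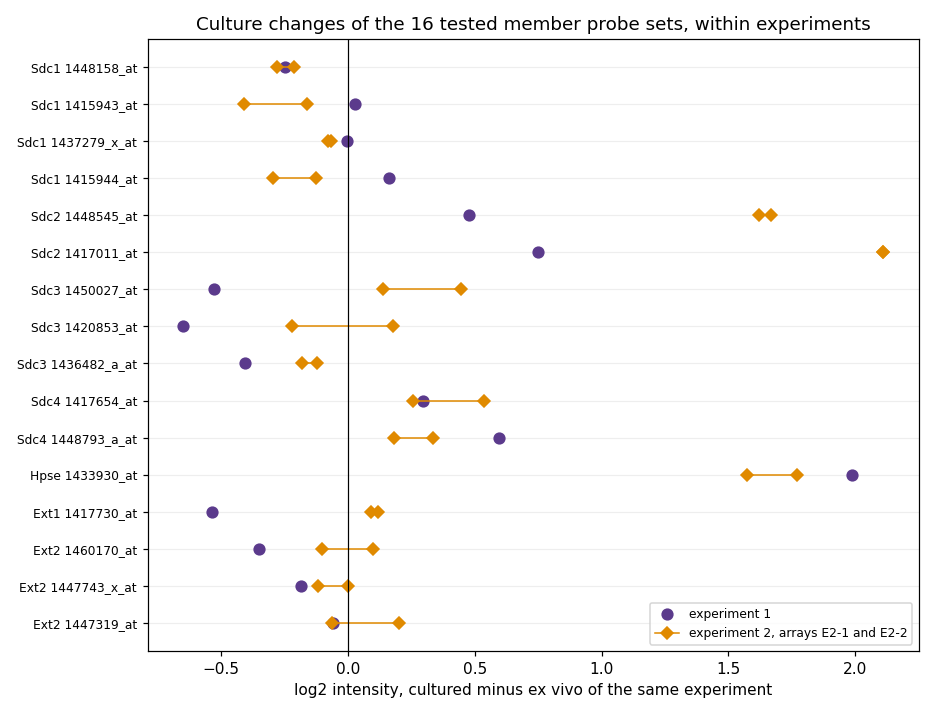
Difference in log2 intensity between each cultured array and the ex vivo array of its experiment (horizontal axis) for the 16 tested member probe sets, with experiment 1 as circles and the 2 arrays of experiment 2 as diamonds. The tested probe sets of Hpse, Sdc2 and Sdc4 lie to the right of 0, with 1448545_at of Sdc2 at 0.48 in experiment 1. Those of Sdc1, Sdc3, Ext1 and Ext2 scatter around 0 as a group. Among them, 1448158_at and 1437279_x_at of Sdc1 and 1436482_a_at of Sdc3 lie to the left of 0 throughout.

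Across the arrays, culture was called by limma at an adjusted p under 0.05 for 14 of 30477 probe sets (0.0459%) and, with each gene represented by its brightest tested probe set, for 8 of 13578 genes (0.0589%). None of the 7 members was called (0 of 7). With the experiment as a block in the model, 550 probe sets (1.8%) and 236 genes (1.74%) were called, and 1 of the 7 members, Hpse. The groups did not overlap for 2 of the 7 members, Hpse and Sdc2, and for 20.8% of all tested genes. The choice of the members used this comparison, and nothing is read from these counts. The median difference was -0.08 over the 16 member probe sets and -0.02 over all tested probe sets.

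The difference between the experiments was not used to choose the members and was tested with culture in the limma model. At an adjusted p under 0.05, 3 of the 16 member probe sets were higher and 1 was lower in experiment 2 than in experiment 1, a share close to the 26.8% called over all probe sets. Sdc4 was higher in experiment 2 by 0.69 (1417654_at, SE 0.13, limma adjusted p = 0.017), and its second probe set had 0.40 (SE 0.13, limma adjusted p = 0.074). Hpse was higher by 0.48 (SE 0.13, limma adjusted p = 0.0497), just past the threshold. None of the 4 was called without ex vivo E1, without ex vivo E2 or without cultured E1. Hpse and the higher Sdc1 probe set (1448158_at) were also lost without cultured E2-2, the Sdc1 probe set without cultured E2-1, and Hpse without the filter on low intensities or with an intensity trend in eBayes. With the 2 cultured arrays of experiment 2 averaged, 1417654_at of Sdc4 and 1437279_x_at of Sdc1 remained.

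Probe sets of Sdc1 disagreed on the difference between the experiments. The probe set 1448158_at was higher in experiment 2 by 0.41 (SE 0.10, limma adjusted p = 0.038), and 1437279_x_at, whose suffix marks probes that may also match other transcripts, was lower by 0.77 there (log2 difference -0.77, SE 0.10, limma adjusted p = 0.0072). That probe set read 12.25, 11.44 and 11.45 in cultured E1, E2-1 and E2-2, and 12.25 and 11.52 in ex vivo E1 and E2, so that the arrays of experiment 1 stood above those of experiment 2 in both groups. The probe sets 1415943_at and 1415944_at differed between the experiments by -0.03 and -0.02. Control probe sets for both ends of the Actb transcript differed between the experiments too. The 3' probe set minus the 5' probe set, in log2, was 0.77 in cultured E1 and -0.11 and -0.01 in cultured E2-1 and E2-2, and it was 0.31 in ex vivo E1 and -0.12 in ex vivo E2. For Gapdh this difference was 0.63 in cultured E1 and 0.30 and 0.28 in cultured E2-1 and E2-2, against 0.74 and 0.34 in ex vivo E1 and E2. Within experiment 1 the Actb difference also differed between the groups, at 0.77 in cultured E1 and 0.31 in ex vivo E1. For Gapdh the order was reversed, at 0.63 and 0.74. The part of these end differences in the values of Sdc1, or in the experiment 1 changes of other members, was not tested.

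No member's change in culture was shown to differ between the experiments. The interaction of culture and experiment, with 1 residual degree of freedom, was called by limma for 0% of all probe sets and for none of the 16 member probe sets, while 2008 of all and 3 of the 16 had an unadjusted p under 0.05. These 3 were both tested probe sets of Sdc2 and the tested one of Ext1 (1417730_at), and Ext1 had an interaction term of 0.64 (SE 0.13, limma adjusted p = 0.65). Nothing is read from the terms of Sdc2, whose probe sets entered the test only through the high cultured arrays of experiment 2.

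The genes whose values followed a member most closely were named for the members that varied, which were Hpse and Sdc2 (SD over the 5 arrays of 1.07 and 0.90). Likeness was the root mean square difference of centred log2 values over the 5 arrays. Nearest to Hpse were Prelp, a matrix proteoglycan (0.16), Pfkl, a phosphofructokinase of glycolysis (0.16), and Ifitm2, an interferon-inducible membrane protein (0.21). Prelp read 7.42, 7.74 and 7.50 in cultured E1, E2-1 and E2-2, against 5.43 and 5.95 in ex vivo E1 and E2. Nearest to Sdc2 were Mpzl1, a cell surface glycoprotein (0.05), Ncan, a chondroitin sulfate proteoglycan (0.08), and Prrx1, a transcription factor of mesenchymal cells (0.10). Prrx1 read 5.64, 6.96 and 7.21 in cultured E1, E2-1 and E2-2, against 5.06 and 5.30 in ex vivo E1 and E2. Like Sdc2, Prrx1 reached the intensity required of a tested probe set on cultured E2-1 and E2-2 alone. Nothing is read from its likeness to Sdc2. All of these genes were compared on the same 5 arrays, and no test was made of the likeness.

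Other genes of heparan sulfate biology were described from 8 lists with 75 genes, of which 71 had a probe set and 62 were tested. None of the 62 was called for culture without the block, against 0.0589% called over all genes. With the block, 3 were called, all higher in culture, against 1.74% called over all genes. Of the 62 genes, 5 (Gpc4, Tgfbr3, Hs6st2, Hgf and Cxcl12) reached the intensity of 50 on cultured arrays alone and so were tested only because they were high there. All of these but Hgf are described below without a p, and Cxcl12 is 1 of the 3 called. The median log2 difference was 0.04 over the 62 genes and -0.06 over all tested genes. The lists were set with earlier results of these arrays known.

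**Figure D4:**
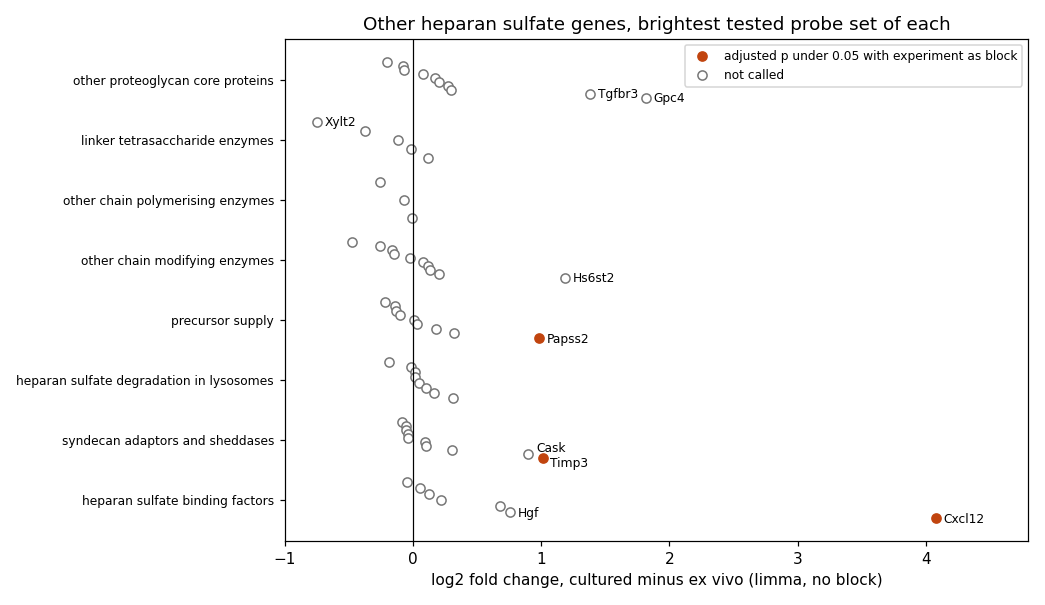
Log2 fold change between cultured and ex vivo PCs (horizontal axis, limma without the block) of the 62 tested genes in 8 lists (rows), each as its brightest tested probe set. Filled circles mark Papss2, Timp3 and Cxcl12, the 3 genes called with the experiment as a block.

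Among 9 genes that supply precursors, Papss2, which makes the sulfate donor PAPS, was called with the block and the other 8 were not. It read 7.15, 7.55 and 7.66 in cultured E1, E2-1 and E2-2, against 6.27 and 6.66 in ex vivo E1 and E2, so the groups did not overlap. The log2 difference was 0.92 (SE 0.11, limma adjusted p = 0.025 with the block and 0.43 without it). Its second tested probe set (1421987_at) gave 0.57 (limma adjusted p = 0.16 with the block). Papss2 was no longer called with the block once the 2 cultured arrays of experiment 2 were averaged.

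Among 10 adaptors and sheddases of syndecans, Timp3, a matrix-bound inhibitor of the sheddases, was called with the block. It read 6.96, 7.13 and 7.35 in cultured E1, E2-1 and E2-2, against 5.80 and 6.47 in ex vivo E1 and E2. The log2 difference was 0.94 (SE 0.15, limma adjusted p = 0.048 with the block and 0.48 without it), and this call was also lost once the 2 cultured arrays of experiment 2 were averaged. The sheddases Adam10 and Adam17 and the adaptor syntenin (Sdcbp) were among the 9 genes of this list not called.

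Of 7 tested factors that bind heparan sulfate, Cxcl12, the chemokine of stromal cells that retains PCs in the marrow, was the gene that passed with the block. It read 9.06, 9.58 and 10.14 in cultured E1, E2-1 and E2-2, against 5.49 and 5.55 in ex vivo E1 and E2. The log2 difference was 4.07 (SE 0.33, without the block). Both ex vivo values lay under the intensity of 50 required of a tested probe set, so its call is no support for a change. Cxcl12 is also one of the 12 stromal markers above. The other 6 factors, Hgf among them, were not called by their brightest probe set. Nothing is read from this for Hgf, which reached the intensity of 50 on cultured arrays alone. Vegfa was called with the block by the dimmer 1420909_at (1.34, limma adjusted p = 0.032) and not by its brightest probe set (0.52, limma adjusted p = 0.25).

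None of the 10 tested core proteins other than syndecans was called with or without the block. By the brightest probe set, the largest differences were those of the glypican Gpc4 and of betaglycan (Tgfbr3). Gpc4 read 4.99, 6.45 and 6.47 in cultured E1, E2-1 and E2-2, against 4.01 and 4.29 in ex vivo E1 and E2 (log2 difference 1.66, SE 0.27, with the block). Tgfbr3 read 5.80, 6.58 and 6.39 in culture, against 4.98 and 4.77 ex vivo (1.33, SE 0.22, with the block). Like Sdc2, both were higher on the cultured arrays of experiment 2 than on that of experiment 1, the order of the stromal markers, whose part in these values was not tested.

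The enzymes of the chain itself were not called either. Of 5 tested linker enzymes, Xylt2, which starts the chain by adding xylose to the core protein, read 7.31, 7.02 and 7.20 in culture, against 8.13 and 7.72 ex vivo. All cultured arrays were below both ex vivo arrays, with a log2 difference of -0.70 (SE 0.12, limma adjusted p = 0.062 with the block). B4galt7, which adds the first galactose, had -0.24 (SE 0.10, limma adjusted p = 0.31 with the block). Of 3 other polymerising enzymes, Extl2 had -0.22 (SE 0.11) and Extl3 -0.01 (SE 0.19). Of 10 tested modifying enzymes, the 6-O-sulfotransferase Hs6st2 read 5.39, 6.07 and 6.68 in culture, against 4.71 and 5.01 ex vivo (1.07, SE 0.24, with the block), and the 3-O-sulfotransferase Hs3st1 read 6.35, 6.29 and 6.21 in culture, against 6.86 and 6.66 ex vivo (-0.45, SE 0.11, limma adjusted p = 0.11 with the block). The 8 tested genes of lysosomal degradation ranged in their log2 difference without the block from -0.19 to 0.32, with the sulfatase Arsg at 0.29 (SE 0.12) and Naglu at 0.14 (SE 0.20) with the block.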

How the data were processed

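PCs ex vivo and after culture were measured on Affymetrix mouse 3' expression arrays, and samples were grouped by the labels. The authors ran RMA from the affy package of R on the raw signals, and GCOS is also named in the submitters' processing notes, with no versions given. The values deposited by the authors are linear RMA intensities, of which log2 was taken here. Detection calls were not used, and the number of arrays limits the precision. The 64 control probe sets among 45101 were set aside. Of the rest, 34945 carry 1 gene symbol, 932 several and 9160 none listed here, and symbols were checked through gene identifiers against RefSeq (GRCm38.p6), which changed 0 of them.

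Probe sets that reached an intensity of 50 on at least 2 arrays, 30477 in all, entered limma 3.58.1 (R 4.3.3, lmFit, eBayes, Benjamini-Hochberg adjustment over all of them, adjusted p under 0.05). Fits were made of culture without a covariate, of culture and experiment together, which gives the blocked culture effect and the experiment effect, and of their interaction. Standard errors are limma's. For each gene the tested probe set with the highest mean stood in. The experiment numbers in the labels pair the arrays. Deviations from the group means correlated across probe sets at 0.75 in experiment 1 and at 0.56 and 0.72 in experiment 2, although with 2 ex vivo arrays these values are not independent. Members and lists were chosen with earlier results of these data known. Of each list, genes called with or without the block were named, and otherwise the 2 with the largest mean change. For members with an SD of at least 0.5, the 3 genes with the nearest values were named. The dimmer Vegfa probe set, the sheddases and Sdcbp were named after their values were seen. As alternatives, the block was added, cultured E2-1 and E2-2 were averaged, the filter was dropped or tightened, values were quantile normalized, an intensity trend was used in eBayes, probe sets were combined otherwise and each array was left out in turn.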

Additional observations from a re-analysis of the deposited data

Results flagged for a closer look

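In 4 tested probe sets of 3 members, the cultured array of experiment 1 moved one way from its ex vivo array and both cultured arrays of experiment 2 moved the other way. For Sdc3 (1450027_at) the change in experiment 2 minus that in experiment 1 was 0.82 on the log2 scale, from -0.53 in experiment 1 and 0.45 and 0.14 in experiment 2. For Ext1 (1417730_at) it was 0.64, from -0.54 in experiment 1 and 0.12 and 0.09 in experiment 2. For Sdc1 it was -0.31 by 1415943_at and -0.38 by 1415944_at, with changes of 0.03 and 0.16 in experiment 1. Each of these differences was fitted as limma's interaction of culture and experiment, and none passed, with adjusted p of 0.65 for Sdc3 and Ext1 and of 0.72 and 0.66 for the Sdc1 probe sets. The groups hold too few arrays for single outlying values to be searched for.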

How the results depend on the processing

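Without the block, 14 probe sets were called for culture. The count was 550 with the experiment as a replicate block, 0 with the 2 cultured arrays of experiment 2 averaged and 187 with both. It was 5 with no filter, 31 with an intensity of at least 100 on 2 arrays, 22 with an intensity trend, and from 0 to 257 when each array was left out, the highest without cultured E1. Members called for culture numbered 0, against 1 (Hpse) with the replicate block, 1 (Hpse) with block and averaging, and from 0 to 1 when each array was left out, the 1 being Sdc2 without cultured E1. Other genes of the lists called for culture numbered 0, against 3 with the replicate block, 1 (Cxcl12) with block and averaging and 1 (Cxcl12) with the stricter filter. Their number went from 0 to 2 when each array was left out, the 2 being Cxcl12 and Gpc4 without cultured E1. Member probe sets called for the experiment numbered 4, against 2 with averaging and from 0 to 3 when each array was left out. Sdc2, Gpc4 and Cxcl12 entered the test only through cultured arrays, so nothing is read from their calls. The cause of these shifts was not tested, and averaging or leaving out arrays leaves fewer of them to the fit. Of the member changes, 4 moved by more than the spread between arrays, those of Hpse (1.56 and 2.22) and Ext2 (0.07 and -0.49) without ex vivo E1 and without ex vivo E2. Their ranges over 13 alternatives were 1.05 to 1.74 for Sdc2 and 0.15 to 0.79 for Sdc4, and the signs of Sdc1, Sdc3, Ext1 and Ext2 changed in at least 1 of them.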
